A study of Brassica carinata and Brassica napus and Brassica carinata x Brassica napus with 3 samples.

Results

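The ROP and Rab small GTPases of Brassica floral buds were taken as every assembled sequence whose best Swiss-Prot hit is named as a Rac-like GTP-binding protein, a Rop guanine nucleotide exchange factor (RopGEF), a CRIB domain-containing RIC protein or a Ras-related protein RAB. The Swiss-Prot score had to reach at least 0.6 of the score of the best Nr hit, and values were summed per Swiss-Prot entry. This gave 65 entries, made of 319 assembled sequences, out of 10565 entries formed in the same way and 157663 assembled sequences in all. Of the 65, 13 were ROP entries with 54 sequences, 2 were RopGEF entries with 28 sequences and 50 were Rab entries with 237 sequences. No RIC was found by Swiss-Prot name.

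Floral buds at the initial flowering stage were sequenced from an interspecific hybrid and from both parents, B. carinata cultivar W29 and B. napus cultivar Zhongshuang 11. The labels give no cultivar, generation or direction of the cross for the hybrid, and do not say how many plants a library holds. Each group is 1 library of total RNA, with 27.1 M reads for the hybrid, 28.1 M for B. carinata and 28.2 M for B. napus. No difference below has a replicate check and no test across samples was possible.

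ROPs are small GTPases of plants, which act as switches at the plasma membrane and set where a cell grows through actin, microtubules and secretion. RopGEFs load ROPs with GTP, and RIC proteins are effectors that bind the active form. Rab GTPases give membranes their identity and steer vesicles between the endoplasmic reticulum, Golgi, trans-Golgi network, endosomes, vacuole and plasma membrane. In flowers both families are best known from pollen tubes, whose tip growth in Arabidopsis uses ROP1 and RABA4d.

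The summed level of the members was even across the libraries. They summed to 2736 RPKM (reads per kilobase of sequence and per 1000000 reads) in hybrid buds, 2721 RPKM in B. carinata buds and 2525 RPKM in B. napus buds, from 66441, 67614 and 65065 reads in that order. In all 3 libraries 63 of the 65 had reads, and 55 reached 5 RPKM in at least 1 library. A member held between 1 and 17 sequences with a median of 4, and 9 members rested on 1 sequence. An entry can therefore pool several Brassica genes and parental copies. Reads of near-identical copies may be split between the sequences of an entry, or between entries. In a summed RPKM short fragments count for more, so read ratios are given for the members that stood apart and for others where the measures differ.

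Each list of markers of the bud tissues was read in every library, though not each entry. Of 16 late pollen and pollen tube entries, 1 was at 0 in hybrid buds, 2 in B. carinata buds and 0 in B. napus buds, and they summed to 182.6, 156.4 and 1019 RPKM in that order. A single entry, profilin-5, gave 149.7 RPKM of the sum in hybrid buds, 110.4 RPKM in B. carinata buds and 126.1 RPKM in B. napus buds. The 12 tapetum and exine entries summed to 1326, 4893 and 1672 RPKM in the hybrid, B. carinata and B. napus. Of this sum the tapetum-specific protein A9 alone gave 853.3, 3665.3 and 729.1 RPKM in that order. The 6 pistil entries summed to 502.1, 340.7 and 416 RPKM, and the 37 green sepal entries to 6354, 7820 and 7521 RPKM, in the same order. Of the green sepal entries 7 were at 0 in hybrid buds, 7 in B. carinata buds and 15 in B. napus buds, and 7 of them had no read in any library. In bulk tissue fewer cells of a type and less RNA per cell cannot be told apart.

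**Figure D1:**
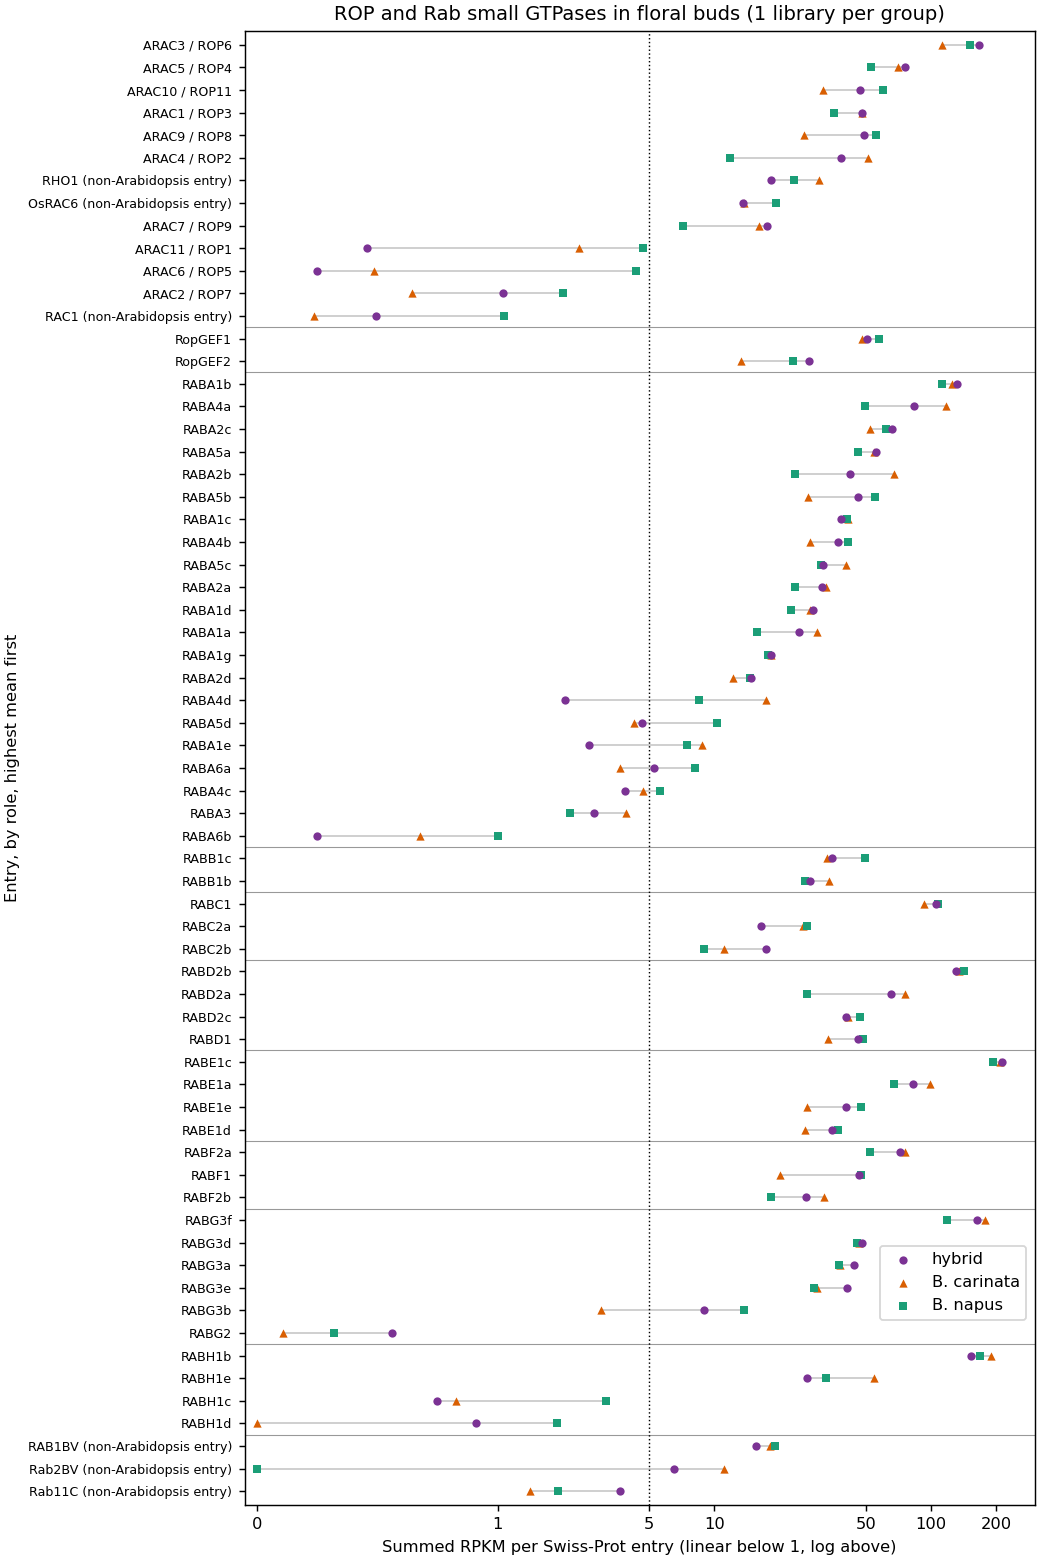
Summed RPKM (x axis, linear below 1 and logarithmic above) of the 65 members (rows, by role and then by mean level), with the hybrid as circles, B. carinata as triangles, B. napus as squares and the dotted line at 5 RPKM. Most rows show the 3 libraries close together, from RABE1c at 213, 208 and 193 RPKM downwards, while RABA4d and RABA1e have the hybrid at the far left.

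Few members stood apart between the hybrid and a parent. A member counted as apart when it differed 2-fold or more on the log2(RPKM + 1) scale and reached 5 RPKM in the library that was higher. That scale understates the change of low members. Between the hybrid and B. carinata, 5 of 53 members were apart, 2 higher and 3 lower in the hybrid, which is 9.43% against a background of 12.2% of 8094 entries (3.82% higher and 8.41% lower). Between the hybrid and B. napus, 6 of 55 were apart, 4 higher and 2 lower in the hybrid, which is 10.9% against a background of 16.7% of 8113 entries (8.62% higher and 8.07% lower). Between B. carinata and B. napus, 11 of 55 were apart, 6 higher and 5 lower in B. carinata, which is 20% against a background of 31.1% of 8484 entries (18.4% higher and 12.7% lower). The median log2 ratio of the members was 0.02, 0.04 and 0.05 in these comparisons, and -0.08, 0.01 and 0.08 over all entries.

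The direction of these counts depended on the scaling of the libraries. Set against the deposited RPKM, TMM scaling shifts the log2 ratios by 0.18 for hybrid over B. carinata, by 0.46 for hybrid over B. napus and by 0.28 for B. carinata over B. napus. Median-of-ratios scaling shifts them by -0.31, -0.03 and 0.28. With TMM factors the counts became 4 higher and 2 lower, 8 higher and 1 lower, and 9 higher and 1 lower in the same comparisons. The share of all entries apart was then 12.6%, 23.2% and 33.3%. With median-of-ratios factors the counts became 1 higher and 4 lower, 4 higher and 3 lower, and 9 higher and 1 lower. The share of all entries apart was then 16.5%, 16.2% and 34.0%. Members gained with TMM factors were ARAC9 and RopGEF2 for hybrid over B. carinata (log2 ratios 1.08 and 1.16), RABA1a, RABA2b, RABA4a and RABC2b for hybrid over B. napus (1.05 to 1.30), and RABA1a, RABA4d and RABF2b for B. carinata over B. napus (1.05 to 1.18). Median-of-ratios factors added RHO1 (-1.002) for hybrid over B. carinata, RABA5d (-1.02) for hybrid over B. napus and again RABA1a, RABA4d and RABF2b between the parents. The ratios of single members below, and the words within 2-fold, are on the deposited scale.

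**Figure D2:**
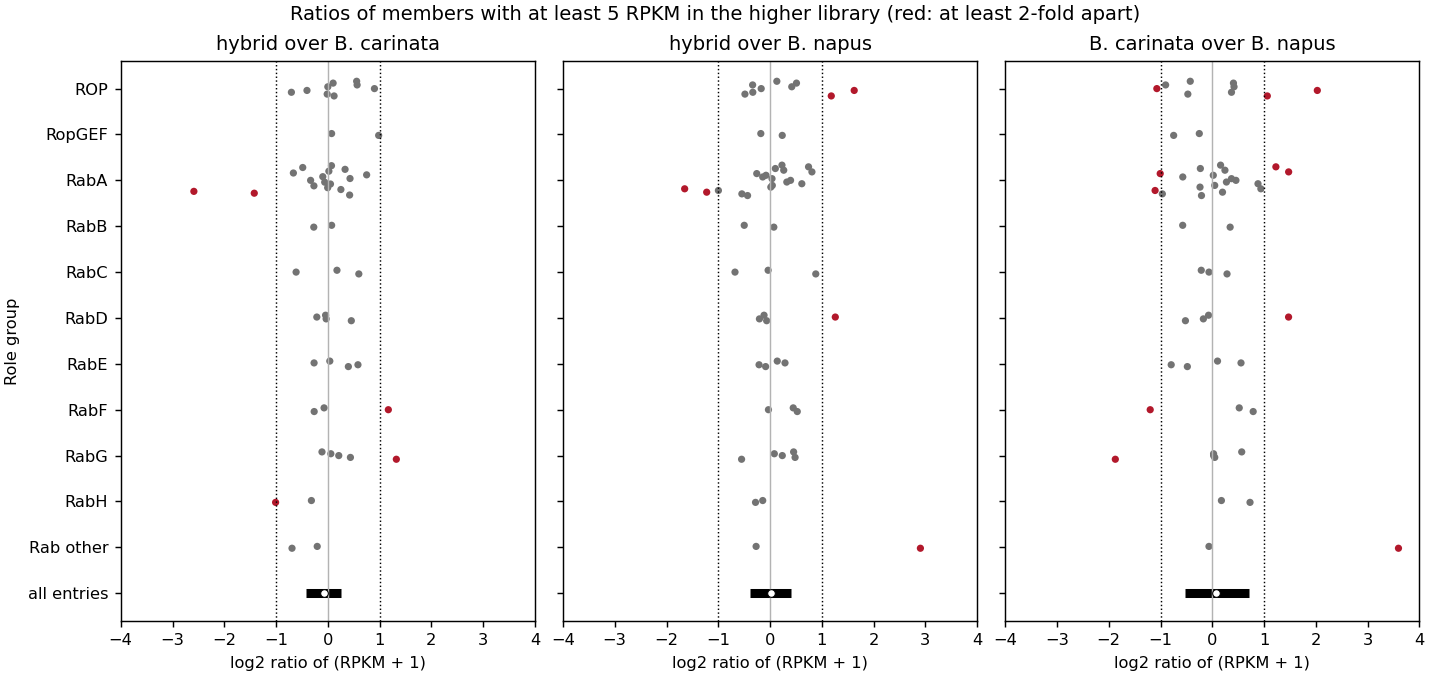
Log2 ratio of (RPKM + 1) for each member past the 5 RPKM minimum (points), by role group (rows), for the 3 comparisons (panels). Red points are at least 2-fold apart (dotted lines), and the bottom row gives the median and the interquartile range of all entries; 5, 6 and 11 members are red in the 3 panels.

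Among the ROPs with at least 5 RPKM, ARAC4 (ROP2) had the largest log2(RPKM + 1) ratio between the parents, and the hybrid was near B. carinata. In Arabidopsis ROP2 promotes lobe growth in leaf epidermal cells and marks the site of root hair growth. ARAC4 had 38.40 RPKM (944 reads) in hybrid buds, 51.11 RPKM (1393 reads) in B. carinata buds and 11.78 RPKM (249 reads) in B. napus buds. Its log2 ratio was 1.62 for hybrid over B. napus, with a read ratio of 3.95 (95% interval 3.43 to 4.56), and 2.03 for B. carinata over B. napus, with a read ratio of 5.61 (4.90 to 6.45). It stayed apart in both comparisons under each of 13 alternative settings. Its 982-base sequence shares its Nr hit with a 647-base sequence named ARAC5. Reads of close copies may therefore also be split between these entries, which the alternatives do not test. ARAC5 had 1498 reads in hybrid buds, 1438 in B. carinata buds and 1323 in B. napus buds. ARAC7 (ROP9) had 17.57 RPKM in hybrid buds, 16.09 RPKM in B. carinata buds and 7.18 RPKM in B. napus buds, on 1 sequence. Its read ratio was 2.44 (2.08 to 2.89) for hybrid over B. napus and 2.24 (1.90 to 2.65) for B. carinata over B. napus, and both calls were lost under 2 of 13 alternatives that weigh or leave out low values. All read ratio intervals cover counting error only.

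ARAC9 (ROP8) went the other way between the parents. It had 49.27 RPKM in hybrid buds, 25.95 RPKM in B. carinata buds and 55.62 RPKM in B. napus buds, a log2 ratio of -1.07 and a read ratio of 0.468 (0.428 to 0.510) for B. carinata over B. napus. Nearly all of it was 1 sequence of 1102 bases with 1389, 744 and 1608 reads in that order, whose Nr hit is a GTPase of alfalfa, so that its naming as ROP8 rests on the Swiss-Prot hit. The call was lost under 4 of 13 alternatives, both scalings named above included.

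The 4 ROPs with the highest mean RPKM over the libraries, ARAC3, ARAC5, ARAC10 and ARAC1, were within 2-fold in each pair. ARAC3 (ROP6), which orders microtubules in epidermal cells of Arabidopsis, had 166.08 RPKM in hybrid buds, 112.67 RPKM in B. carinata buds and 151.65 RPKM in B. napus buds, with a read ratio of 1.78 (1.69 to 1.88) for hybrid over B. carinata. ARAC5 (ROP4), a close relative of ROP2, had 75.67, 70.48 and 52.85 RPKM, and ARAC10 (ROP11), which acts in abscisic acid signalling and in the patterning of xylem walls, had 47.14, 31.55 and 59.81 RPKM in the same order. ARAC1 (ROP3) had 48.15 RPKM in hybrid buds, 48.18 RPKM in B. carinata buds and 35.77 RPKM in B. napus buds. The pea entry RHO1 had 18.22, 30.32 and 23.23 RPKM and the rice entry RAC6 had 13.51, 13.64 and 19.31 RPKM, each on fragments of under 500 bases. In the hybrid 0 of 9 ROPs were apart from B. carinata, beside the background of 12.2%, and 2 of 9 were higher than in B. napus, beside 8.62% of entries.

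The pollen members ARAC11 and ARAC6 had few reads in the hybrid and more in B. napus. ARAC11 (ROP1), the main switch of pollen tube tip growth in Arabidopsis, had 5 reads (0.458 RPKM) in hybrid buds, 28 reads (2.37 RPKM) in B. carinata buds and 55 reads (4.67 RPKM) in B. napus buds. ARAC6 (ROP5), its close pollen relative, had 2 reads in hybrid buds, 4 in B. carinata buds and 36 in B. napus buds. The hybrid was lowest and B. napus highest for both, with hybrid over B. napus read ratios of 0.0948 (0.0296 to 0.235) for ARAC11 and 0.0579 (0.00675 to 0.225) for ARAC6. For hybrid over B. carinata the read ratio was 0.185 (0.0559 to 0.487) for ARAC11, while the interval of ARAC6, 0.047 to 3.62, did not exclude equal levels. Neither reached 5 RPKM, so neither entered the counts above. The late pollen markers moved in the same order for B. napus against the other libraries. At the 2-fold limit 10 of 12 were lower in the hybrid than in B. napus, beside 8.07% of all entries. Against B. carinata 1 of 5 was lower in the hybrid, beside 8.41%. The part of the markers in these values was not tested. ARAC2 (ROP7), known from xylem, had 20, 13 and 52 reads and the Lotus entry RAC1 had 4, 2 and 9 reads in the hybrid, B. carinata and B. napus.

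The RopGEF entries were both within 2-fold. RopGEF1, which activates ROP1 in Arabidopsis pollen tubes, had 50.62 RPKM in hybrid buds, 48.10 RPKM in B. carinata buds and 57.44 RPKM in B. napus buds. Of its 13 sequences, 2 bear the name RopGEF1 in Nr as well, and these had 1362, 1202 and 2023 reads, while the other 11 had 689, 838 and 530 reads in the same order. RopGEF2 had 27.20 RPKM in hybrid buds, 13.29 RPKM in B. carinata buds and 22.97 RPKM in B. napus buds. Its log2 ratio of 0.98 for hybrid over B. carinata was just inside the 2-fold limit, and its 15 sequences include some that Nr names as RopGEF3 or as other proteins. No entry was found by Swiss-Prot name for the pollen RopGEFs 8, 9 and 12 to 14.

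RIC sequences were found only by their Nr names, a match made after the annotation had been seen, and they are not members. RIC4, which promotes actin assembly downstream of ROP1 and ROP2 in Arabidopsis, had 52 reads in hybrid buds, 24 in B. carinata buds and 423 in B. napus buds over 5 sequences. RIC3, which raises calcium at the pollen tube tip, had 0, 0 and 39 reads in the same order, and RIC1, which acts on microtubules, had 0, 10 and 0. The hybrid thus had 0.128 times the B. napus reads of RIC4 (0.0942 to 0.171) and 2.25 times those of B. carinata (1.36 to 3.82). RIC7 had 155 reads in hybrid buds, 35 in B. carinata buds and 194 in B. napus buds.

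RabA GTPases, the plant relatives of Rab11, carry traffic from the trans-Golgi network to the cell surface and the cell plate, and were the largest clade with 21 entries. They summed to 671 RPKM in hybrid buds, 716.6 RPKM in B. carinata buds and 598.1 RPKM in B. napus buds. RABA1b, involved in recycling to the plasma membrane, was the highest with 131.27, 125.04 and 111.83 RPKM in the same order. The clade also held the 2 members of all 55 that the hybrid had at least 2-fold below both parents, RABA4d and RABA1e. That is 3.64% of members against 1.24% of 8536 entries, and 0 members were at least 2-fold above both parents against 0.246% of entries.

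RABA4d, needed for tip growth of Arabidopsis pollen tubes, had 2.04 RPKM (19 reads) in hybrid buds, 17.27 RPKM (186 reads) in B. carinata buds and 8.53 RPKM (80 reads) in B. napus buds. The read ratio was 0.106 (0.0625 to 0.171) for hybrid over B. carinata and 0.248 (0.142 to 0.412) for hybrid over B. napus. Its 6 sequences are fragments of at most 559 bases, and the longest had 6, 116 and 10 reads in the hybrid, B. carinata and B. napus. A fragment of 302 bases had 2, 0 and 28 reads in the same order, so that different fragments carried the reads of the parents. The call against B. carinata was lost under 1 of 13 alternatives and the call against B. napus under 5 of 13.

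In its summed reads RABA4d did not follow the late pollen markers between the parents. B. carinata had 2.33 times the B. napus reads of RABA4d (1.79 to 3.07), though its log2 ratio of 0.94 was within the 2-fold limit. By that limit 10 of 12 marker entries were lower in B. carinata than in B. napus, beside 12.7% of all entries. The RABA4d fragments of 234, 242 and 559 bases had more reads in B. carinata, and those of 302, 326 and 331 bases had more in B. napus. The pectinesterases PPME1 and VGD1 (PME5), which are enzymes of the pollen tube wall, had 9 and 20 reads in hybrid buds, 7 and 54 in B. carinata buds, and 3161 and 8143 in B. napus buds. The pollen potassium channel AKT6, singled out after its values were seen, had 12 reads in hybrid buds, 83 in B. carinata buds and 69 in B. napus buds. Its read ratio for B. carinata over B. napus was 1.21, and the interval, 0.8665 to 1.69, did not exclude equal levels. The tapetum and exine markers were lower in the hybrid than in B. carinata for 10 of 12 entries, beside 8.41% of all entries. Against B. napus 3 of 11 were lower in the hybrid and 3 higher, beside 8.07% and 8.62% of all entries. The part of either marker group in the RABA4d values was not tested.

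**Figure D3:**
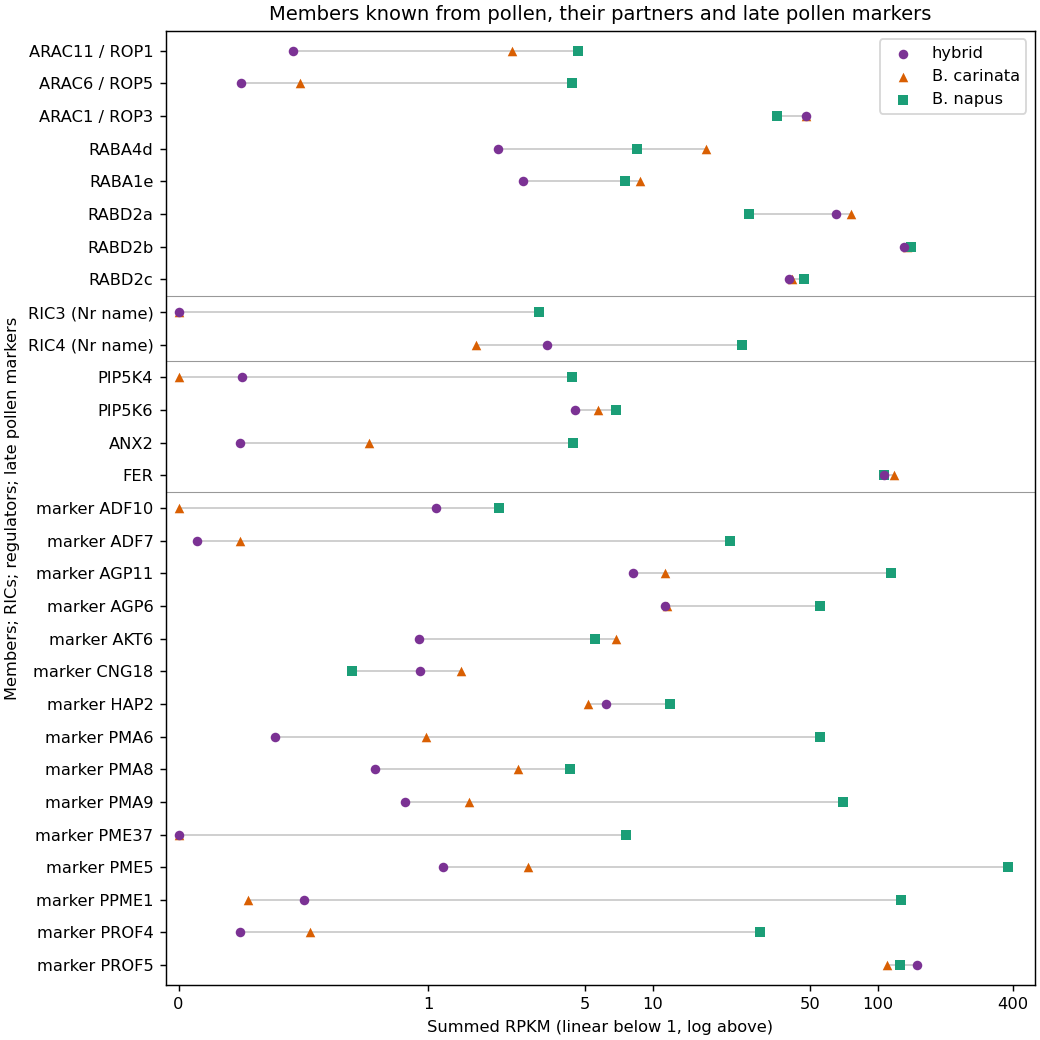
Summed RPKM (x axis, linear below 1 and logarithmic above) of members known from pollen and of RABA1e, of RIC3 and RIC4 by Nr name, of 4 regulators and of the late pollen markers other than ANX2, with the hybrid as circles, B. carinata as triangles and B. napus as squares. ROP5 and most markers have B. napus far to the right. ROP1 has B. napus highest at 4.67 RPKM, B. carinata at 2.37 RPKM and the hybrid at 0.458 RPKM. RABA4d has B. carinata highest at 17.3 RPKM and the hybrid lowest at 2.04 RPKM.

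RABA1e, found at the cell plate of dividing Arabidopsis cells, had 2.64 RPKM (50 reads) in hybrid buds, 8.74 RPKM (167 reads) in B. carinata buds and 7.5 RPKM (142 reads) in B. napus buds. Both of its sequences were lowest in the hybrid, the longer with 42, 135 and 113 reads and the shorter with 8, 32 and 29 reads in the same order. Its read ratio was 0.311 (0.222 to 0.429) for hybrid over B. carinata and 0.367 (0.260 to 0.510) for hybrid over B. napus. For B. carinata over B. napus the ratio was 1.18 and its interval, 0.938 to 1.49, did not exclude equal levels. The call against B. carinata was lost under 2 of 13 alternatives and the call against B. napus under 5.

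Other RabA members differed between the parents, with the hybrid between them. RABA4a had 83.36 RPKM in hybrid buds, 117.11 RPKM in B. carinata buds and 49.42 RPKM in B. napus buds, and its parental log2 ratio of 1.23, with a read ratio of 2.37 (2.21 to 2.53), held under all 13 alternatives. RABA2b, a cell plate and trans-Golgi Rab, had 42.20, 67.56 and 23.67 RPKM in the same order, a parental log2 ratio of 1.47 with a read ratio of 3.57 (3.23 to 3.96), a call that was lost under 1 of 13 alternatives. RABA5b was lower in B. carinata, with 45.92 RPKM in hybrid buds, 26.92 RPKM in B. carinata buds and 55.09 RPKM in B. napus buds and a parental read ratio of 0.489 (0.447 to 0.535). RABA5d had 4.66, 4.25 and 10.30 RPKM, with a parental read ratio of 0.463 (0.322 to 0.658), just past the limit for B. carinata over B. napus and just within it for hybrid over B. napus, at -0.998. The RABA5b call was lost under 3 of 13 alternatives and the RABA5d call under 8. RABA4b, which marks growing root hair tips in Arabidopsis, had 37.32, 27.49 and 41.30 RPKM in the hybrid, B. carinata and B. napus. RABA2a had 31.40, 32.80 and 23.63 RPKM but 1176, 1603 and 706 reads in the same order, and its read ratio for B. carinata over B. napus was 2.28 (2.08 to 2.49). The remaining RabA members with at least 5 RPKM were within 2-fold on the log2(RPKM + 1) scale in each pair. Of these, RABA6a was near the limit between the parents at -0.965. It had 5.27, 3.69 and 8.15 RPKM in the hybrid, B. carinata and B. napus, with a parental read ratio of 0.390 (0.243 to 0.612). RABA3 and RABA6b stayed below 5 RPKM throughout.

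Among Rabs of the early secretory pathway, RABD2a stood apart from B. napus. RabD GTPases (Rab1) act between the endoplasmic reticulum and Golgi. RABD2a had 65.54 RPKM (1618 reads) in hybrid buds, 76.15 RPKM (1925 reads) in B. carinata buds and 26.79 RPKM (719 reads) in B. napus buds, with a read ratio of 2.35 (2.15 to 2.56) for hybrid over B. napus and 2.69 (2.46 to 2.93) for B. carinata over B. napus. This rested on a sequence of 887 bases with 976 reads in hybrid buds, 1565 in B. carinata buds and 0 in B. napus buds. Without that sequence, an alternative chosen after seeing the data, the log2 ratio was -0.10 for hybrid over B. napus and -0.94 for B. carinata over B. napus. A sequence of 952 bases had 243, 0 and 107 reads in the same order as above. With only the 1 sequence that had reads in all 3 libraries, the log2 ratio reversed to -0.53 for hybrid over B. napus and to -0.72 for B. carinata over B. napus. RABD2b and RABD2c, which together are needed for normal pollen in Arabidopsis, were level by RPKM, with 130.53 and 40.55 RPKM in hybrid buds, 134.65 and 41.52 RPKM in B. carinata buds, and 141.63 and 46.92 RPKM in B. napus buds. By reads RABD2b had 3024, 2418 and 4676 in that order, and a sequence of 2558 bases, named in Nr as a nuclear RNA-binding protein, took 664, 81 and 1705 of them. RABD1 had 46.12, 33.43 and 48.33 RPKM in the same order.

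RabB (Rab2), RabC (Rab18) and RabE (Rab8) had 0 members apart in any pair by summed RPKM, where the backgrounds were 12.2%, 16.7% and 31.1%. This depended on the measure for RABC2b, which was apart from B. napus in the hybrid with TMM factors (log2 ratio 1.30), and by summed reads both in the hybrid (1.32) and in B. carinata (1.33). With the highest sequence of each entry alone, RABB1c, RABC2a, RABC2b, RABE1c and RABE1e were apart between the parents, beside 62.6% of all entries. RABC2a, RABE1c and RABE1e were then apart between the hybrid and B. carinata, beside 31.1%. RABB1c, RABC2a, RABC2b and RABE1e were apart between the hybrid and B. napus, beside 35.7%. With sequences read in all 3 libraries RABC2b and RABE1e were apart between the parents, beside 28.4%. In that setting RABE1e was apart between the hybrid and B. carinata, beside 11.3%, and RABC2b between the hybrid and B. napus, beside 13.7%. RABC2b was also apart from B. napus in both other libraries with sequences of at least 500 bases or a Swiss-Prot score of at least 100. RABB1c, of the clade that acts at the Golgi, had 34.73 RPKM in hybrid buds, 32.98 RPKM in B. carinata buds and 49.51 RPKM in B. napus buds. RABC1 led its clade with 104.90, 92.76 and 107.70 RPKM in the same order. RABE1c, of the clade that moves Golgi vesicles to the plasma membrane, was the highest of all members, with 213.00 RPKM in hybrid buds, 207.52 RPKM in B. carinata buds and 193.45 RPKM in B. napus buds. Its read ratios lay between 1.004 and 1.10 in the 3 comparisons. RABC2b had 17.31, 11.10 and 8.93 RPKM but 269, 280 and 95 reads in the hybrid, B. carinata and B. napus, with a read ratio of 2.95 (2.33 to 3.77) for hybrid over B. napus.

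Among the endosomal and vacuolar Rabs, RABF1 and RABG3b were lowest in B. carinata. RABF1 (ARA6) is a plant-specific Rab5 of late endosomes, and had 46.40 RPKM (984 reads) in hybrid buds, 20.10 RPKM (500 reads) in B. carinata buds and 47.44 RPKM (996 reads) in B. napus buds. Its read ratio for hybrid over B. carinata was 2.04 (1.83 to 2.28), and for hybrid over B. napus 1.03 (0.942 to 1.13). For B. carinata over B. napus it was 0.504 (0.452 to 0.561). RABG3b, a Rab7 linked to autophagy in forming xylem of Arabidopsis, had 9.002, 2.9996 and 13.65 RPKM on 1 sequence, with a read ratio of 3.001 (2.35 to 3.86) for hybrid over B. carinata and 0.220 (0.173 to 0.277) for B. carinata over B. napus. The RABF1 call was lost under 2 of 13 alternatives against the hybrid and 3 against B. napus, and the RABG3b call under 2 and 1. The conventional Rab5 RABF2a, with 71.71, 75.50 and 52.34 RPKM in the hybrid, B. carinata and B. napus, was within 2-fold in each pair. RABG3f, a Rab7 needed for transport to the vacuole, had 162.97, 176.42 and 118.66 RPKM in the same order and was also within 2-fold. The other members of both clades were within 2-fold too, except RABG2, which had 10, 2 and 6 reads and stayed under 5 RPKM.

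RabH GTPases (Rab6), of the Golgi, included the last member apart from B. carinata. RABH1e had 26.64 RPKM (415 reads) in hybrid buds, 54.66 RPKM (812 reads) in B. carinata buds and 32.59 RPKM (560 reads) in B. napus buds, a log2 ratio of -1.01 and a read ratio of 0.531 (0.471 to 0.598) for hybrid over B. carinata. The call was lost under 5 of 13 alternatives. RABH1b, which takes part in the transport of cellulose synthase, had 152.03, 189.80 and 167.89 RPKM in the hybrid, B. carinata and B. napus. RABH1c had 21, 24 and 92 reads and RABH1d had 7, 0 and 15 reads in the same order. Of the entries from other species, the beet entry Rab2BV rested on 1 fragment of 205 bases with 36 reads in hybrid buds, 64 in B. carinata buds and 0 in B. napus buds. Set against a floor of 3 reads in B. napus, Rab2BV was 12.5-fold higher in the hybrid and 21.4-fold higher in B. carinata. With counting error, the lower limits of its read ratios over B. napus were 9.66 for the hybrid and 16.9 for B. carinata. Both calls were lost under 5 of 13 alternatives, such as a minimum length of 500 bases. RAB1BV had 15.60, 18.15 and 19.02 RPKM in the hybrid, B. carinata and B. napus, and Rab11C of Lotus had 70, 28 and 38 reads.

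The hybrid lay between the parents for 29 of the 55 members with at least 5 RPKM (52.7%), above both for 14 and below both for 12. Over all 8536 entries 58.4% were between, 19.6% above and 22.0% below. These positions count a difference of any size, on the deposited scale.

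Single assembled sequences were further apart than the summed members. Between B. carinata and B. napus, 123 of 182 member sequences with at least 5 RPKM were apart, 66 higher and 57 lower in B. carinata, which is 67.6% against a background of 74.8% of 49318 sequences. Between the hybrid and a parent the share was 31.8% for B. carinata, against a background of 36.6%, and 36.7% for B. napus, against a background of 43.6%. Of the 65 members, 29 held sequences higher in each parent, 9 held sequences higher in B. carinata alone, 13 held sequences higher in B. napus alone and 14 held no sequence apart. These are 44.6%, 13.8%, 20% and 21.5% of members, against 31.0%, 18.5%, 13.6% and 36.9% of the 10565 entries, which also held a median of 4 sequences. The hybrid lay between the parents for 118 of the 123 sequences (95.9%), above both for 4 and below both for 1, and over all sequences apart between the parents it lay between for 92.0%.

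ARAC3 shows this at a sum within 2-fold in each pair. Its sequence of 938 bases had 1319 reads in hybrid buds, 235 in B. carinata buds and 2007 in B. napus buds, while its sequence of 574 bases had 487, 700 and 0 reads in the same order. ARAC4 had 771, 1349 and 76 reads on its sequence of 982 bases but 173, 44 and 173 on that of 678 bases. The sequences of RABA5b, of 945 and 944 bases, had 513 and 662 reads in hybrid buds, 612 and 104 in B. carinata buds, and 161 and 1308 in B. napus buds. The RABF1 fragment of 510 bases had 270, 3 and 355 reads in the hybrid, B. carinata and B. napus, while its sequence of 1145 bases had 214, 273 and 19. In each of these members the hybrid had reads both on a sequence higher in B. carinata and on a sequence higher in B. napus. All of these sequences but the 574-base sequence of ARAC3 had reads in both parents. The hybrid reads on them therefore do not show from which parent a copy came.

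**Figure D4:**
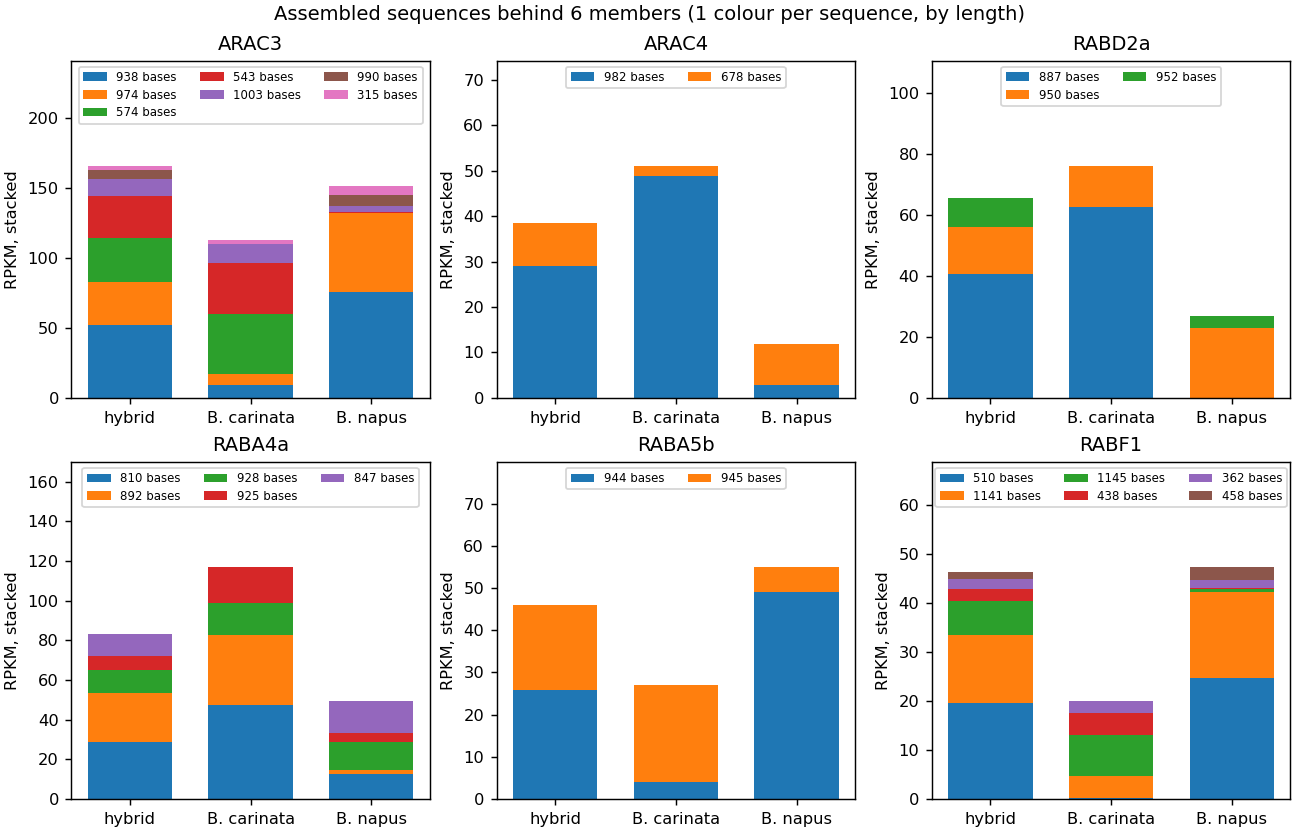
RPKM of each assembled sequence, stacked (y axis, from 0), in the hybrid, B. carinata and B. napus (bars) for 6 members (panels), with 1 colour per sequence named by its length. The bars of the parents differ in the share of each colour. The 887-base sequence of RABD2a has 1565 B. carinata reads and 0 B. napus reads, while the 928-base sequence of RABA4a has 420 and 375. The hybrid bar holds sequences that are higher in each parent.

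Sequences read in 1 parent alone were nearly all read in the hybrid. With at least 10 reads in 1 parent and 0 in the other, 32 member sequences (10%) were read in B. carinata alone, against 17.4% of all sequences, and 21 (6.58%) in B. napus alone, against 7.66%. The hybrid had reads for 30 of the 32 (93.8%), against 93.3% of all such sequences, and for 21 of the 21 (100%), against 88.2%. These are sequences of 1 hybrid library, and several come from the same entry. Its reads per 1000000 were a median of 51.5% of the B. carinata level over the 32 and 54.5% of the B. napus level over the 21, against 45.3% and 39.3% over all such sequences. The exceptions were a RABA2b sequence of 896 bases, with 0 reads in the hybrid and 150 in B. carinata, and a RABA1g sequence of 1068 bases, with 0 and 24. Both forms were found in 9 members, forms of B. carinata alone in 13, forms of B. napus alone in 7 and neither in 36. These are 13.8%, 20%, 10.8% and 55.4% of members, against 14.4%, 34.2%, 9.02% and 42.4% of all entries.

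**Figure D5:**
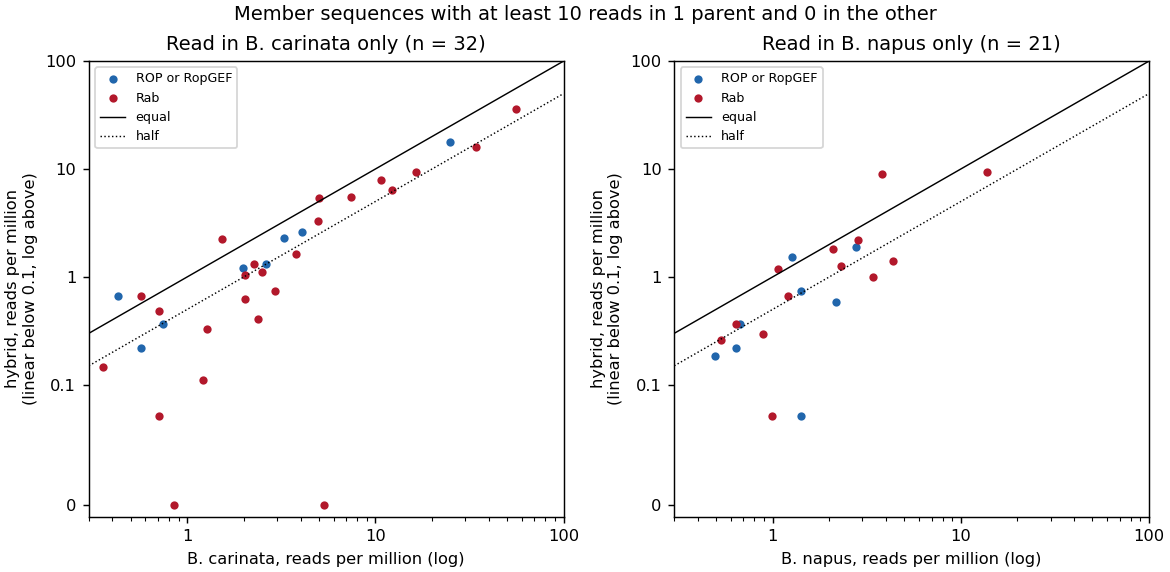
Reads per 1000000 in the hybrid (y axis, linear below 0.1 and logarithmic above) against those in the parent (x axis, logarithmic) for the 32 member sequences read in B. carinata alone and the 21 read in B. napus alone, with ROP or RopGEF in blue and Rab in red. Most points lie near the dotted line at 50% of the parent, and 2 Rab sequences of B. carinata lie at 0 in the hybrid.

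Of 42 regulators and partners of ROPs and Rabs, 2 of 35 with at least 5 RPKM were apart between the hybrid and B. carinata (1 higher, 1 lower), 3 of 36 between the hybrid and B. napus (2 higher, 1 lower), and 7 of 35 between B. carinata and B. napus (3 higher, 4 lower). The backgrounds are again 12.2%, 16.7% and 31.1%. RhoGDI1, which removes ROPs from the membrane, had 39.4 RPKM in hybrid buds, 31.5 RPKM in B. carinata buds and 61.6 RPKM in B. napus buds. VPS9A, the exchange factor of plant Rab5, had 20.4, 20.2 and 28.5 RPKM, and FERONIA, a receptor kinase that acts through RopGEFs, had 107.4, 118.8 and 106.5 RPKM in the same order. The PRA1 proteins, which bind prenylated Rabs, included both PRA1.A1, with 24.4 RPKM in hybrid buds, 41.6 RPKM in B. carinata buds and 3.9 RPKM in B. napus buds, and PRA1.F3, with 47.8, 20.9 and 56.2 RPKM. The ROP effectors ICR1 and ICR5 had 22.4 and 4.1 RPKM in hybrid buds, 18.1 and 9.5 RPKM in B. carinata buds, and 33.0 and 9.8 RPKM in B. napus buds. Some regulators known from pollen had few reads, with 2 reads in hybrid buds, 0 in B. carinata buds and 34 in B. napus buds for the lipid kinase PIP5K4, and 2, 7 and 37 reads for the receptor kinase ANXUR2. The lipid kinase PIP5K10 went the other way, with 38, 82 and 0 reads in the same order, and PIP5K6 had 56, 57 and 79.

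Of 18 entries of other small GTPase families, 2 of 15 with at least 5 RPKM were higher in the hybrid than in B. carinata, beside 3.82% of all entries, and 2 of 15 higher than in B. napus, beside 8.62%. Between B. carinata and B. napus 4 of 15 were apart, 2 in each direction, beside 31.1%. They summed to 2591 RPKM in hybrid buds, 1958 RPKM in B. carinata buds and 2555 RPKM in B. napus buds. The vesicle coat GTPase ARF2-B had 559.0, 350.1 and 678.5 RPKM in that order. A Ran entry named after faba bean, a family of nuclear transport GTPases, had 1464 reads in hybrid buds, 2948 in B. carinata buds and 1 in B. napus buds on 1 sequence. The Arabidopsis entries Ran-2 and Ran-3 had 8945 and 5471 reads in hybrid buds, 9101 and 3823 in B. carinata buds, and 8515 and 4380 in B. napus buds.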

How the data were processed

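RNA-seq of floral buds from 1 library each of the hybrid, B. carinata and B. napus was analysed from 1 deposited table of assembled sequences. It holds raw read counts and RPKM that the authors computed, per the file headers, with sequence lengths and the scores of the best Nr and Swiss-Prot hits, also given by the authors. For the assembler, aligner, counter and search tool no name is given in the sources used here. Deposited RPKM equalled the count over length and total within 5e-05. A count of 0 allows up to 0.111 reads per 1000000 in the hybrid, 0.107 in B. carinata and 0.106 in B. napus (3 reads), for counting error only. Of 355 sequences matched by name, the score rule left out 36, and with them 2 of 67 entries, while 5 sequences with no Nr score were kept.

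RPKM and counts were summed per Swiss-Prot entry. Ratios were taken on log2(RPKM + 1). With 1 library per group there was no test. Intervals of read ratios (95%) come from an exact binomial test conditional on the sum, limited to counting error, and repeated reads of 1 molecule could not be told apart. The members and lists were chosen with earlier results of these data known. Named were the highest member of each role, the members furthest apart in each comparison and a list known from pollen, and others complete a family. Alternatives covered the pseudocount, the minimum RPKM, scaling, the summing and the score rules. Python 3.11.15, numpy 2.4.6, pandas 2.3.3, SciPy 1.17.1, matplotlib 3.10.9, and edgeR 4.0.16 in R 4.3.3 (TMM factors only) were used.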

Additional observations from a re-analysis of the deposited data

How the results depend on the processing

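The counts of members apart are given for hybrid against B. carinata (5), hybrid against B. napus (6) and B. carinata against B. napus (11), in this order. A pseudocount of 5 gave 2, 3 and 7, beside backgrounds of 7.08%, 10.4% and 22.4%. A minimum of 20 RPKM gave 2, 2 and 7, beside backgrounds of 10.1%, 13.8% and 28.9%. The first shrinks the ratios of low members and the second leaves them out. Taking the highest sequence of each entry gave 16, 17 and 35, beside backgrounds of 31.1%, 35.7% and 62.6%. Summed reads per 1000000 gave 3 for hybrid against B. carinata, beside a background of 10.3%, and the cause was not tested. The other settings gave 5 to 6, 5 to 9 and 10 to 14. Their backgrounds were 10.4% to 16.5%, 13.7% to 23.2% and 27.3% to 34.0%. RABD2a reversed to -0.53 for hybrid over B. napus and -0.72 for B. carinata over B. napus with sequences read in all 3 libraries, which leaves 1 of its 3 sequences. Without its 887-base sequence, a choice made after seeing the data, these were -0.10 and -0.94. A minimum Swiss-Prot score of 100, chosen after seeing the data, gave 6, 7 and 13, beside backgrounds of 11.4%, 14.9% and 28.7%. No paired analysis was possible because each group has 1 library, and for the same reason no library could be left out. Members under 5 RPKM rest on at most 92 reads per library, which limits what their ratios can show.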
